A study of Mus musculus with 15 samples.

Results

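The 9 genes described here are *Prss34*, *Mcpt8*, *Cpa3*, *Ms4a2*, *Fcer1a*, *Cd200r3*, *Gata2*, *Kit* and *Il4*, which are used as markers of basophils and mast cells. They were taken by symbol from a table of 20089 genes, and all 9 were found in it. Their expression was measured by RNA sequencing in 15 cultures of bone marrow-derived macrophages (BMDMs) from wild-type C57BL/6 mice, in 5 groups of 3. All cultures received M-CSF, the growth factor that drives macrophage formation from marrow cells. The control group received M-CSF alone, and the other groups additionally received RANKL, which drives osteoclast formation, or LPS, a bacterial cell wall component, for 4 h or 72 h. RNA came from whole cultures, no sort for macrophages was named, and nothing in the labels says whether the replicates came from separate mice. P-values given for other genes therefore measure only the spread between these samples. No culture with M-CSF alone for the later time was analysed here, so at 72 h the stimulus and the time in culture cannot be told apart. The set was chosen by name, and selected on differences in FPKM between these groups that were already known, so the members' differences between groups are given as a description, without a test.

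Basophils and mast cells are granulocytes that arm their surface with IgE through the high-affinity receptor FcεRI. When antigen crosslinks the bound IgE, they release granules filled with histamine, proteoglycan and proteases, and they secrete lipid mediators and type 2 cytokines such as IL-4. Both arise from marrow progenitors under GATA2. Mast cells keep the receptor KIT through life, and mature basophils largely lose it. Bone marrow cultures can hold both, as well as their progenitors, beside the macrophages they are grown for.

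The RefSeq promoter sequences of 4 members that were nearly silent in both 72 h groups are shown, because GATA2 is itself a member and the letters of a GATA motif lie in each of them. Each run is the 250 bases before the gene start on the coding strand of GRCm38, with matches to AGATAA or its reverse complement TTATCT in capitals. The windows are chr17:25298144-25298393 on the plus strand for *Prss34*, and on the minus strand chr3:20242182-20242431 for *Cpa3*, chr19:11623720-11623969 for *Ms4a2* and chr1:173227230-173227479 for *Fcer1a*.
*Prss34*: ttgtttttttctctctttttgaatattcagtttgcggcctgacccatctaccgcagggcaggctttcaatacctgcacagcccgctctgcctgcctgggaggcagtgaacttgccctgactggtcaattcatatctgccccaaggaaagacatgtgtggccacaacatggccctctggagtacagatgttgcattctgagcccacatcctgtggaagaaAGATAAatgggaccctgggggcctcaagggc
*Cpa3*: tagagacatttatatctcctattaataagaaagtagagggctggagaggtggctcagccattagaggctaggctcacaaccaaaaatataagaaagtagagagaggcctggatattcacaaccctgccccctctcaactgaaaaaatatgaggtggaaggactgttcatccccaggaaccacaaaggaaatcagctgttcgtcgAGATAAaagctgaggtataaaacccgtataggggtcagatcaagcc
*Ms4a2*: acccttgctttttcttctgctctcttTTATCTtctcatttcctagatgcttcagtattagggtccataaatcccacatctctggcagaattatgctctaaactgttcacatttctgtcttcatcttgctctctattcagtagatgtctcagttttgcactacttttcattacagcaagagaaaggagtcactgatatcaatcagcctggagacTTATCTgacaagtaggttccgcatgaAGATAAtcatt
*Fcer1a*: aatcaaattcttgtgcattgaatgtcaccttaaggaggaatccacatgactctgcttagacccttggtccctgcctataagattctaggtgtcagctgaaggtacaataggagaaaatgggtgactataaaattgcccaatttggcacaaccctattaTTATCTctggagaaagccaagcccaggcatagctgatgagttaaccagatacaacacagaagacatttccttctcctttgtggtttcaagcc
The match began 31 bases before the start in *Prss34*, 46 in *Cpa3* and 92 in *Fcer1a*. *Ms4a2* held 3 matches, beginning 224, 37 and 11 bases before the start. Over windows that also take in the first 50 bases of the gene, AGATAA was found on either strand for 5 of the 9 members, the fifth being *Cd200r3*, and for 12.7% of the 27025 genes with a promoter entry. TGATAA, a second form of the motif, was found for *Cd200r3* and *Il4*, against 10.4% of genes. The E-box CATGTG was found for *Prss34*, *Fcer1a* and *Il4*, against 15.9% of genes, and the E-box CACGTG for 0 of 9 members, against 8.09%. These matches are descriptions of letters in a window and say nothing about binding.

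Expression is given as FPKM, the fragments of a gene per kilobase of transcript, scaled to the mapped fragments of the sample, so levels can be set side by side between genes. Fragment counts were worked back from the FPKM values, and the samples held 18306184 to 20330207 fragments on listed genes. Correlations between replicates (Spearman's rho over genes) ran from 0.967 to 0.992, and the lowest involved LPS 72 h replicate 3. That sample stood apart, with *Pf4* at 2110 FPKM and *S100a9* at 701, against at most 743 and 67.5 in the other LPS 72 h samples.

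The granule proteases carried most of the signal. *Prss34* encodes mouse mast cell protease 11, a tryptase made by basophils (chr17:25298394-25300165, plus strand, 5 exons). In control cultures it stood at 43.2, 15.9 and 15.4 FPKM (24.8 ± 15.9, SD, n = 3), from 1181, 431 and 392 fragments. After 4 h it stood at 34.5, 12.6 and 8.57 FPKM with RANKL and at 35.6, 13.3 and 8.74 with LPS. Both 4 h ranges overlapped the control range. After 72 h it was 0.0803, 0.345 and 0.0389 FPKM with RANKL, from 12 fragments in all, and 0, 0 and 0.236 with LPS, from 6 fragments in 1 sample. All 6 late samples lay far below every control sample. In pooled fragments *Prss34* was 160-fold lower in RANKL 72 h (exact counting interval 91.5 to 311) and 329-fold lower in LPS 72 h (151 to 898), intervals that cover counting error only. In these bulk samples, fewer cells of a type and less RNA per cell cannot be told apart.

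*Cpa3*, the mast cell carboxypeptidase A that basophils and their progenitors also make (chr3:20215620-20242181, minus strand), followed the same course at lower levels. It was 4.65, 1.65 and 2.73 FPKM in control, 4.03, 1.58 and 1.03 in RANKL 4 h, and 3.85, 1.57 and 1.24 in LPS 4 h. In RANKL 72 h it was 0, 0.230 and 0, and in LPS 72 h 0, 0 and 0.101, so that only 1 sample of each late group held any fragment, 7 and 3 respectively. The pooled fall was 38.5-fold (18.5 to 96.7) with RANKL and 92.3-fold (31.2 to 450) with LPS.

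*Mcpt8*, the protease by which mouse basophils are commonly identified (chr14:56082166-56085273, minus strand), departed from the other 2. It was 15.8, 4.60 and 4.21 FPKM in control, 11.2, 3.58 and 2.77 in RANKL 4 h, and 11.8, 4.57 and 1.86 in LPS 4 h. RANKL 72 h gave 3.45, 0.299 and 0.434 FPKM, all below the lowest control. LPS 72 h gave 0.576, 0.893 and 5.79 FPKM, from 14, 21 and 132 fragments, and its replicate 3 lay within the control range at 138% of the control of the same number. The pooled ratio was 6.08-fold lower in RANKL 72 h (4.89 to 7.65) and 3.52-fold lower in LPS 72 h (2.96 to 4.20), the latter resting on the 2 lower samples. Without LPS 72 h replicate 3 the log2 difference to control was -3.06 in place of -2.12.

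The balance of *Prss34* to *Mcpt8* set the late samples apart from the rest. In the 9 control and 4 h samples there were 2.73 to 4.70 FPKM of *Prss34* for each FPKM of *Mcpt8*. In RANKL 72 h the ratios were 0.0233, 1.15 and 0.0896, and in LPS 72 h 0, 0 and 0.0407. In RANKL 72 h replicate 1 there were 77 *Mcpt8* fragments beside 2 of *Prss34*, and in LPS 72 h replicate 3 there were 132 beside 6. The residual *Mcpt8* of those 2 samples therefore did not come with *Prss34* in the proportion seen in control cultures.

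**Figure D1:**
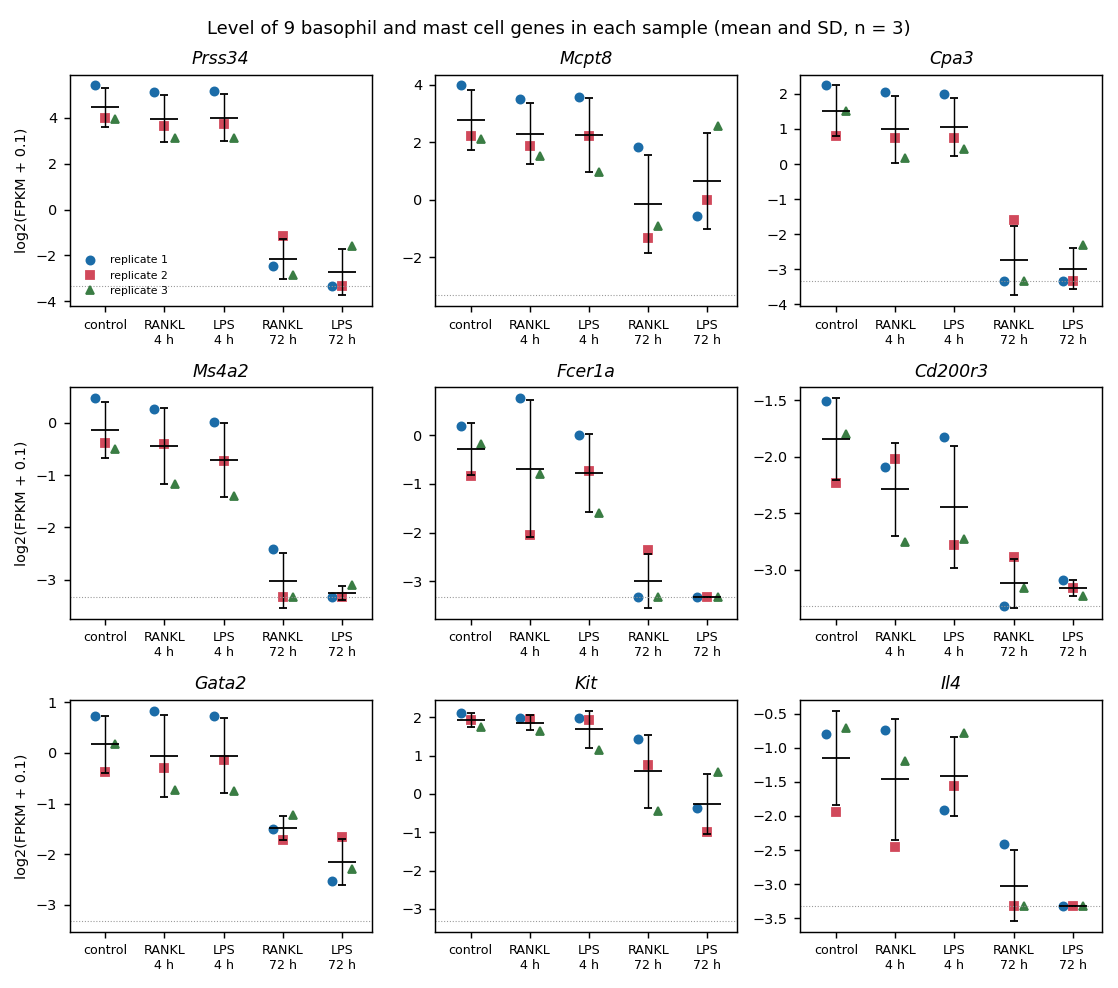
FPKM of each of the 9 members by sample, with a panel for each gene, on a log2(FPKM + 0.1) axis. Points are the 15 samples by group and replicate, and bars give the mean and SD of the 3 values on that scale, with a dotted line at 0 FPKM. All 6 samples of the 72 h groups lie below the control samples for every member except *Mcpt8*, where LPS 72 h replicate 3 lies within the control range.

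Both chains of the IgE receptor in the set were at or near 0 at 72 h. *Fcer1a* encodes the IgE-binding α chain (chr1:173221284-173227214, minus strand). It was 1.04, 0.455 and 0.776 FPKM in control, from 23, 10 and 16 fragments. RANKL 4 h gave 1.60, 0.142 and 0.479, a wider range than control in both directions, and LPS 4 h gave 0.899, 0.497 and 0.229. In RANKL 72 h it was 0, 0.0946 and 0, with 2 fragments in all, and the pooled ratio was 23.5-fold lower with a counting interval of 6.17 to 200. In LPS 72 h no fragment was counted in any sample, which puts it at least 16.1-fold lower when set against a floor of 3 fragments over the group.

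*Ms4a2* encodes the signal-amplifying β chain (chr19:11615523-11623719, minus strand). Its values were 1.29, 0.666 and 0.605 FPKM in control, 1.11, 0.657 and 0.342 in RANKL 4 h, and 0.911, 0.50 and 0.277 in LPS 4 h. RANKL 72 h gave 0.0884, 0 and 0 and LPS 72 h gave 0, 0 and 0.0173, so 4 of the 6 late samples had none. The pooled ratios were 29.9-fold lower (12.6 to 93.5) and 154-fold lower (27.2 to 6110), the second resting on a single fragment. The γ chain *Fcer1g*, which macrophages also use for other Fc receptors and which is no member, differed from control by -0.59 (SE 0.18) on the log2 scale in RANKL 72 h and by 0.15 (SE 0.18) in LPS 72 h, short of the fold threshold in both.

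*Cd200r3* encodes an activating receptor of basophils and mast cells (chr16:44943678-44981380, plus strand) and was the lowest member. It was 0.253, 0.113 and 0.187 FPKM in control, 0.134, 0.147 and 0.0476 in RANKL 4 h, and 0.182, 0.0449 and 0.0511 in LPS 4 h. RANKL 72 h gave 0, 0.0353 and 0.0119 and LPS 72 h gave 0.0170, 0.0117 and 0.00604. The late groups held 8 and 6 fragments against 96 in control, and neither overlapped it. The gene did not reach the mean of 0.1 FPKM required for the fit, so 8 of the 9 members were fitted.

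*Gata2*, the transcription factor needed for both lineages and for blood stem cells (chr6:88193891-88207032, plus strand), was lower at 72 h but present in every sample. It was 1.57, 0.665 and 1.02 FPKM in control, 1.68, 0.716 and 0.506 in RANKL 4 h, and 1.55, 0.808 and 0.495 in LPS 4 h. RANKL 72 h gave 0.255, 0.205 and 0.325 and LPS 72 h gave 0.0740, 0.217 and 0.105. The highest late sample, at 0.325, lay below the lowest control at 0.665. The pooled ratios were 4.16-fold (3.13 to 5.60) and 8.26-fold (5.68 to 12.4).

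*Kit* encodes the stem cell factor receptor of mast cells and progenitors (chr5:75574916-75656722, plus strand). Unlike the proteases it was even among control replicates, at 4.24, 3.70 and 3.25 FPKM. RANKL 4 h gave 3.88, 3.75 and 3.04, and LPS 4 h gave 3.88, 3.74 and 2.10. RANKL 72 h gave 2.60, 1.59 and 0.639 FPKM and LPS 72 h gave 0.674, 0.406 and 1.38. *Kit* showed the smallest pooled ratio of the members in RANKL 72 h, 2.34-fold lower (2.11 to 2.59), and was 4.60-fold lower in LPS 72 h (4.04 to 5.25). Its log2 difference in RANKL 72 h was -1.34, and -0.83 without RANKL 72 h replicate 3, a value that no longer met the call rule of the fit across all genes.

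*Il4*, the type 2 cytokine (chr11:53602982-53618669, minus strand), was counted in very few fragments. It was 0.477, 0.160 and 0.512 FPKM in control, from 6, 2 and 6 fragments. The 4 h groups held 6, 1 and 4 fragments with RANKL and 2, 3 and 6 with LPS, so no change was detectable at this depth. A single fragment was seen in RANKL 72 h (pooled ratio 13.4-fold lower, interval 2.04 to 568) and none in LPS 72 h, which puts it at least 4.60-fold lower.

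For all genes, differences were estimated with limma on log2(FPKM + 0.1), a scale that understates the change of low genes. A gene was called when its fold was above 1.5 or below 0.66 at an unadjusted p under 0.05. In RANKL 72 h all 8 fitted members were lower by this rule, where 9.04% of the 11743 genes tested were lower and 20.2% higher. In LPS 72 h all 8 were lower, where 16.1% of genes were lower and 14.9% higher. At an adjusted p under 0.05 the counts were 8, where 7.54% of genes were lower, and 7, where 14.4% were. All 3 samples lay below all 3 controls for 8 of the 8 in RANKL 72 h, as for 16.1% of genes, and for 7 in LPS 72 h, as for 21% of genes. Since the set was drawn up with these differences in view, nothing is read from these counts. The log2 differences in RANKL 72 h ran from -6.63 (SE 0.68) for *Prss34* through -4.27 (SE 0.60) for *Cpa3* to -1.34 (SE 0.44) for *Kit*, with a median of -2.80. In LPS 72 h they ran from -7.20 (SE 0.68) for *Prss34* to -2.12 (SE 0.97) for *Mcpt8*, with a median of -2.68. The medians of all tested genes were 0.16 and 0.08. In LPS 72 h *Mcpt8* was the member that left the call at an adjusted p under 0.05, and it also left it without control replicate 1 (-1.51), without control replicate 2 (-2.39), without LPS 72 h replicate 1 (-1.50) and without LPS 72 h replicate 2 (-1.78).

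**Figure D2:**
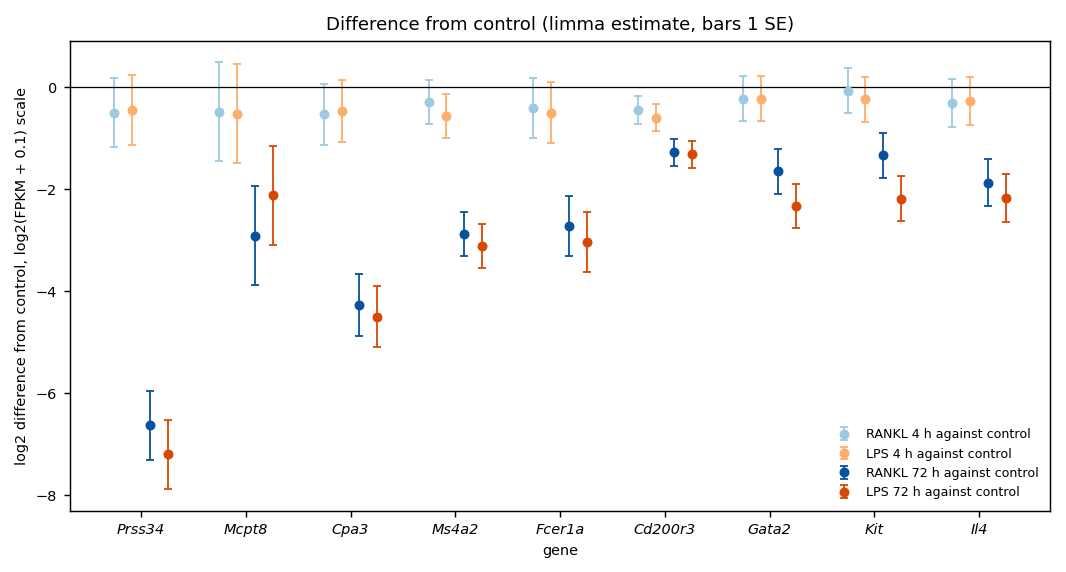
Log2 difference to control, on the log2(FPKM + 0.1) scale, of each member in the 4 stimulated groups, with bars of 1 SE from the fit across all genes. The 72 h values lie between -7.20 and -1.28 and the 4 h values between -0.60 and -0.07.

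After 4 h none of the 8 fitted members met the call rule with RANKL, where 1.35% of genes were lower and 1.21% higher, or with LPS, where 41% were lower and 8.75% higher. Every member's mean lay below control all the same, by 0.07 (*Kit*) to 0.53 (*Cpa3*) on the log2 scale with RANKL, and by 0.23 (*Gata2*) to 0.60 (*Cd200r3*) with LPS. The median of all tested genes was 0.00 with RANKL and -0.52 with LPS. Relative to that shift the members' median in LPS 4 h was 0.11, above rather than below the typical gene, against -0.46 without it. In same-numbered pairs *Prss34* stood at 55.7% to 79.9% of control with RANKL and at 56.8% to 83.7% with LPS, below its control in 3 of 3 pairs each. *Mcpt8* stood at 65.9% to 77.8% and at 44.2% to 99.3%. *Cpa3* and *Ms4a2* were also below control in every pair. *Fcer1a*, *Gata2*, *Kit* and *Il4* were not, in either 4 h group, nor was *Cd200r3* with RANKL. With RANKL *Fcer1a* ran from 31.1% to 154% and *Cd200r3* from 25.5% to 130%. With LPS *Gata2* ran from 48.3% to 121% and *Il4* from 34.9% to 149%. The labels do not say what a shared number means.

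The replicate number went with the members' level in the early groups. Of the 9 members, 7 (*Prss34*, *Mcpt8*, *Cpa3*, *Ms4a2*, *Fcer1a*, *Gata2* and *Kit*) were highest in replicate 1 of control, of RANKL 4 h and of LPS 4 h alike, a pattern held by 16.9% of all tested genes. *Prss34* in control replicate 1, at 43.2 FPKM, stood well above the 15.9 and 15.4 FPKM of the other controls. The pattern was not seen in the 72 h groups, where replicate 1 was highest for 4 members with RANKL and 1 with LPS, and LPS 72 h replicate 3 was highest for 5. The summed level of the 9 members ranged from 27.9 to 72.5 FPKM in control, from 17.1 to 58.6 in RANKL 4 h and from 15.5 to 58.8 in LPS 4 h. It ranged from 1.45 to 6.56 in RANKL 72 h and from 1.34 to 7.64 in LPS 72 h.

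Between the late groups, none of the 8 fitted members met the call rule, where 13.8% of genes were lower and 25.1% higher in RANKL 72 h than in LPS 72 h. The differences ranged from -0.80 (SE 0.97) for *Mcpt8* to 0.85 (SE 0.44) for *Kit*, with a median of 0.31. *Gata2* stood 0.67 (SE 0.44) higher with RANKL. For *Prss34*, *Cpa3*, *Ms4a2*, *Fcer1a* and *Il4* both groups held so few fragments that a difference was not detectable at this depth. For *Kit* the outcome rested on single samples: its difference met the call rule without RANKL 72 h replicate 3 (1.36) and without LPS 72 h replicate 3 (1.26).

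A longer list of 31 genes made by basophils or mast cells, of which 30 were in the table and 21 were expressed enough to be tested, moved less uniformly. In RANKL 72 h 6 of the 21 fell and 2 rose, and in LPS 72 h 9 fell and 5 rose, with medians of -0.23 and -0.35. Over all tested genes 9.04% were lower and 20.2% higher in RANKL 72 h, and 16.1% and 14.9% in LPS 72 h. Taken relative to the median gene, the RANKL 72 h count was 9 down and 2 up, where 14.2% of all tested genes were lower and 12.7% higher. Those that fell in both late groups included 3 named here. *Gata1*, which works with and after GATA2, fell from 1.92 ± 0.851 FPKM (SD, n = 3) to 0.0239 ± 0.0243 in RANKL 72 h (log2 -3.97, adjusted p = 2.82e-05) and 0.124 ± 0.0393 in LPS 72 h (-3.11, adjusted p = 0.000126). *Slc18a2*, the transporter that loads histamine into granules, fell by 2.73 (adjusted p = 0.000618) and by 2.54 (adjusted p = 0.000727). *Hdc*, the histamine-forming enzyme, fell by 2.09 (adjusted p = 0.045) and by 2.37 (adjusted p = 0.023). Most tested eosinophil, megakaryocyte and erythroid genes fell in both late groups as well, and which cells these 3 falls came from was not tested.

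Other listed genes moved upwards, moved with a single stimulus or did not pass the test. *Itga2*, an integrin chain found on platelets as well, rose by 3.49 in RANKL 72 h (adjusted p = 8.15e-05). *Ltc4s*, the leukotriene C4 synthase, rose by 1.80 there (adjusted p = 0.014). *Adora3*, an adenosine receptor, fell by 1.31 in RANKL 72 h and rose by 1.08 in LPS 72 h. *Mitf*, a transcription factor of mast cells and of osteoclasts, fell by 1.10 in LPS 72 h (adjusted p = 0.000432), where *Alox5*, the 5-lipoxygenase, fell by 1.77 (adjusted p = 0.0168), and differed by 0.28 in RANKL 72 h. *Csf2rb*, the shared receptor chain for IL-3, IL-5 and GM-CSF, rose by 0.98 in LPS 72 h (adjusted p = 0.00116). *Cd63*, a granule membrane protein of many cells and the most abundant of the list, differed by -0.51 and -0.35, inside the fold threshold. After 4 h, 1 of the 21 met the call rule with RANKL, *Cebpa*, a transcription factor of the granulocyte and monocyte lineages, which was 1.12 higher (adjusted p = 0.249), and 2 did with the replicate number as a block. With LPS for 4 h 3 fell and 4 rose, where 41% of all tested genes fell and 8.75% rose. Relative to the median gene the count was 2 and 7, where 14.3% fell and 17.4% rose. *Cebpa* fell by 2.85 with LPS for 4 h (adjusted p = 2.38e-06).

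Most mast cell proteases and receptors of the list were close to absent. *Mrgprb2*, a receptor of connective tissue mast cells, was at 0 in all 15 samples. *Tpsb2*, a mast cell tryptase, held 14, 1 and 0 fragments in control and none at 72 h. *Mcpt2*, a protease of mucosal mast cells, held no fragment in control, LPS 4 h and either 72 h group, and the chymase *Cma1* held none in control, LPS 4 h and RANKL 72 h. *Mcpt4* and *Rgs13* were likewise at or near 0. *Mcpt1*, another mucosal mast cell protease, was the exception, with 6, 0 and 0 fragments in control and 11, 8 and 12 in LPS 72 h (log2 1.91, adjusted p = 0.0403). The name of the set thus rests on *Prss34*, *Mcpt8*, *Cpa3* and the FcεRI chains, and *Kit* and *Gata2* are also made by progenitors.

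After LPS for 4 h, the histamine enzyme and type 2 cytokines rose while the members did not. *Hdc* was 22.5, 4.74 and 14.4 FPKM in control and 92.4, 23.3 and 62.2 in LPS 4 h, a log2 difference of 2.14 (SE 0.74, adjusted p = 0.0224), and each LPS sample exceeded every control sample. *Il13*, a neighbour of *Il4* on chromosome 11 with overlapping function, held 1, 0 and 2 fragments in control and 76, 13 and 24 in LPS 4 h (log2 3.20, SE 0.46, adjusted p = 5.46e-05). *Il5*, the eosinophil growth factor at the same locus, held no fragment in control and 95, 17 and 38 in LPS 4 h (adjusted p = 8.6e-06). *Il4* itself differed by -0.27 (SE 0.47) there. None of these cytokines was above 2 fragments in any sample of RANKL 4 h or of the 72 h groups, except *Il4* in RANKL 4 h.

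The LPS 4 h values of *Hdc*, *Il13* and *Il5* were each highest in replicate 1 and lowest in replicate 2, whereas *Prss34* was highest in replicate 1 and lowest in replicate 3. These genes are also made by other cells: *Hdc* by neutrophils and macrophages, and *Il13* and *Il5* by T cells and innate lymphoid cells. In LPS 4 h *Il2ra*, the interleukin-2 receptor α chain, rose from 0.841, 0.392 and 0.384 to 4.14, 3.22 and 1.61 FPKM (log2 2.25, SE 0.46, adjusted p = 0.000956). *Areg*, a growth factor of lymphoid cells and basophils among others, rose by 2.15 (SE 0.61, adjusted p = 0.00816). Of 11 tested T cell and innate lymphoid cell genes 3 rose and 1 fell (4 and 0 relative to the median gene). Of all tested genes 8.75% rose and 41% fell in LPS 4 h. The 3 listed genes that rose were *Il5*, *Areg* and *Il2ra* themselves. The T cell receptor genes *Cd3e*, *Cd3g* and *Cd3d* and the co-receptor *Cd4* did not pass the test, at -0.61 (SE 0.64), -0.48 (SE 0.64), -0.30 (SE 0.58) and -0.42 (SE 0.35), and the 1 that fell was *Il7r*, the interleukin-7 receptor, at -1.05 (SE 0.48, adjusted p = 0.0737). The summed level of the 11 genes was 54.6 to 94.1 FPKM in control and 37.5 to 55.9 in LPS 4 h. Which cells made the cytokines was not tested.

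**Figure D3:**
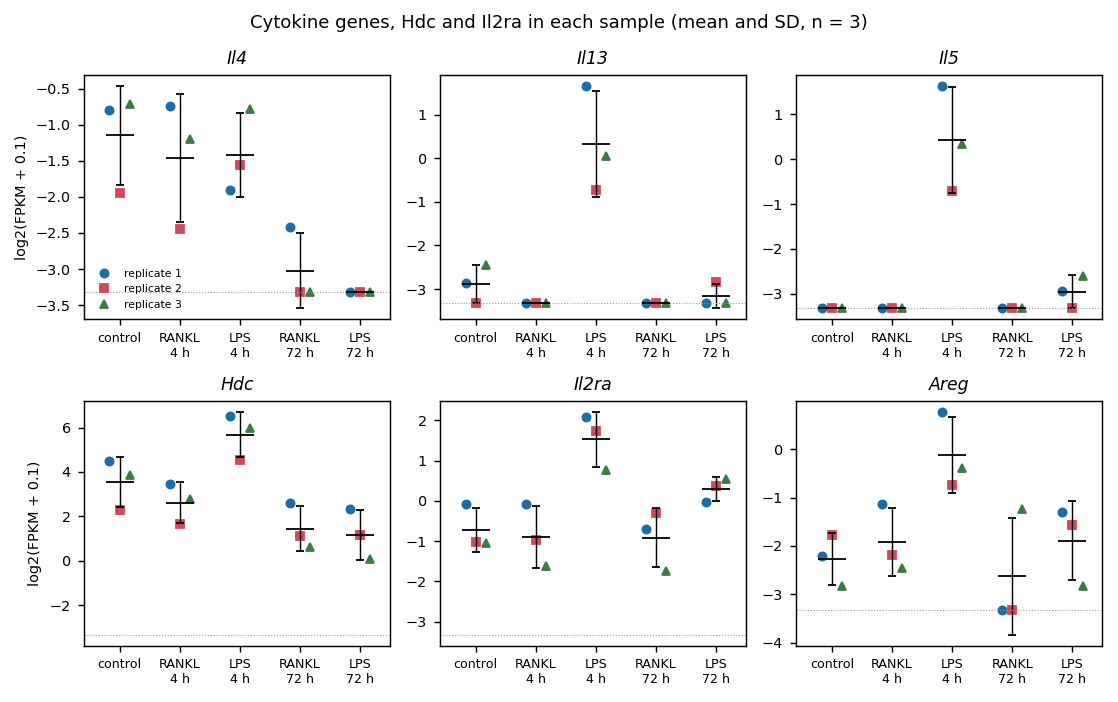
FPKM by sample of *Il4*, *Il13*, *Il5*, *Hdc*, *Il2ra* and *Areg* in the 5 groups, on a log2(FPKM + 0.1) axis, with the mean and SD of the 3 values on that scale and a dotted line at 0 FPKM. *Il13*, *Il5*, *Hdc*, *Il2ra* and *Areg* are higher in all 3 LPS 4 h samples than in all 3 control samples, and *Il4* is not.

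The signalling genes downstream of FcεRI and KIT are mostly shared with macrophages. Of 18 tested, 3 fell and 2 rose in RANKL 72 h (5 and 2 relative to the median gene), and 7 fell and 1 rose in LPS 72 h. Their medians were -0.03 and -0.39, against 0.16 and 0.08 over all tested genes, and the shares of all genes that fell were 9.04% and 16.1%. *Grap2*, an adaptor of the LAT complex, fell by 1.65 (adjusted p = 0.00216) and by 2.69 (adjusted p = 4.85e-05). *Lat*, the membrane scaffold of that complex, rose by 1.67 in RANKL 72 h (adjusted p = 0.0472) and fell by 1.77 in LPS 72 h (adjusted p = 0.0327). *Syk*, the kinase recruited by FcεRI, rose by 0.83 in LPS 72 h (adjusted p = 0.00241), and *Lyn*, the kinase that starts the cascade, differed by -0.47 and 0.08. *Kitl*, the ligand of KIT, fell by 1.66 in LPS 72 h (adjusted p = 0.000698). In LPS 4 h, where 41% of all genes fell, 7 fell and 2 rose, among them *Inpp5d*, the inhibitory phosphatase SHIP1, which fell by 2.13, and *Lcp2*, the adaptor SLP-76, which rose by 1.93. Relative to the median gene the LPS 4 h count turned to 3 down and 5 up.

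Of 11 tested genes of the IL-4 receptor and its targets in macrophages, 1 fell and 3 rose in RANKL 72 h. Relative to the median gene 4 fell and 1 rose there. In LPS 72 h 5 fell and 4 rose, and in LPS 4 h 1 fell and 6 rose. The shares of all tested genes that fell and rose were 9.04% and 20.2% in RANKL 72 h. They were 16.1% and 14.9% in LPS 72 h, and 41% and 8.75% in LPS 4 h. *Il4ra*, the receptor chain itself, rose by 1.30 in LPS 4 h (adjusted p = 0.000146) and by 0.82 in LPS 72 h (adjusted p = 0.00876). *Arg1*, arginase, rose by 2.73 (adjusted p = 0.0149) and by 3.43 (adjusted p = 0.00334) at 72 h. *Chil3*, the chitinase-like protein Ym1, fell at 72 h (-2.29, adjusted p = 0.023, and -5.04, adjusted p = 0.000126). *Mrc1*, the mannose receptor, fell by 1.56 in LPS 72 h (adjusted p = 0.0369). Targets of IL-4 thus moved in both directions at 72 h, in cultures where *Il4* held at most 1 fragment.

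*Mcpt8* lies in a cluster of mast cell protease, cathepsin G and granzyme genes on chromosome 14, and its neighbours moved in opposite directions at 72 h. Of 9 tested neighbours 1 fell and 4 rose in RANKL 72 h, and 1 fell and 6 rose in LPS 72 h. Of all tested genes 9.04% fell and 20.2% rose in RANKL 72 h, and 16.1% and 14.9% in LPS 72 h. *Ctsg*, the cathepsin G of neutrophil precursors, fell from 119, 103 and 62.6 FPKM to 2.71, 2.49 and 1.09 in RANKL 72 h (adjusted p = 0.00306) and to 0, 2.87 and 9.63 in LPS 72 h (adjusted p = 0.00126). *Gzmc*, a granzyme, rose from 18.9, 6.89 and 9.09 to 58.5, 36.1 and 28.6 in RANKL 72 h (adjusted p = 0.0416) and 18.5, 65.1 and 127 in LPS 72 h (adjusted p = 0.0133). *Gzmg* rose from 0.409, 0 and 0.989 to 16.4, 9.11 and 15.5 in RANKL 72 h (adjusted p = 0.0162) and 1.03, 119 and 86.4 in LPS 72 h (adjusted p = 0.00639). *Gzmd*, *Gzme*, *Gzmf* and *Gzmg* are near-identical copies, so the split of fragments between them is uncertain. LPS 72 h replicate 1, the sample with the lowest *Mcpt8* of its group, was also the lowest in *Ctsg*, *Gzmc* and *Gzmg*.

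**Figure D4:**
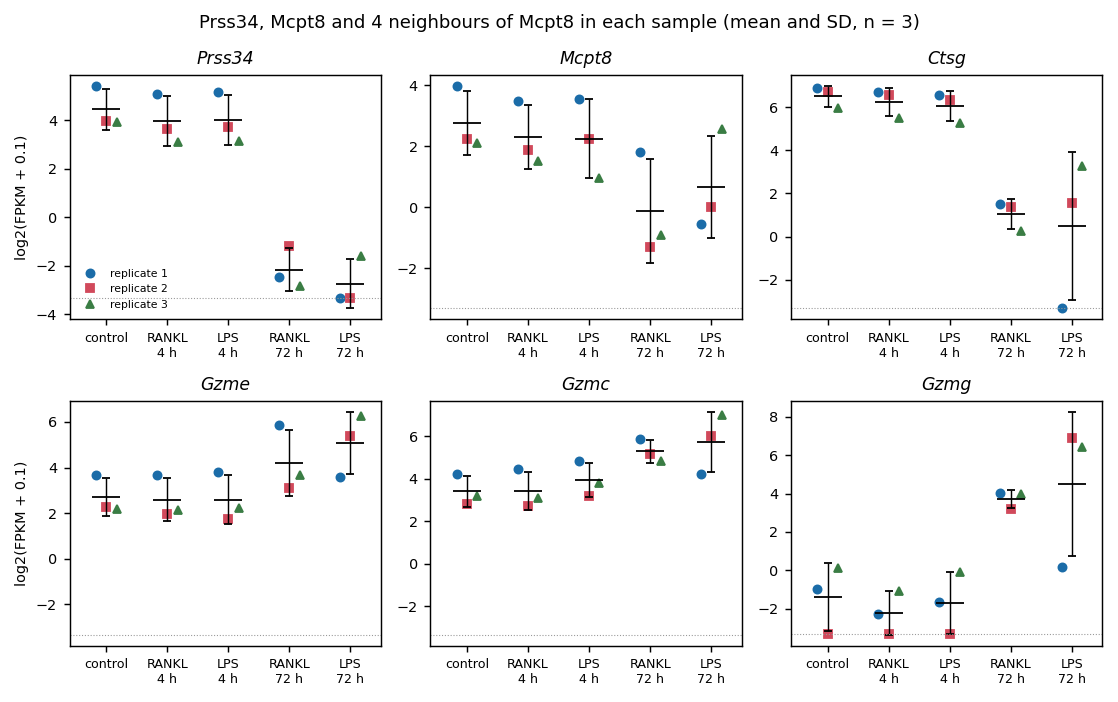
FPKM by sample of *Prss34*, *Mcpt8* and 4 genes of the *Mcpt8* cluster in the 5 groups, on a log2(FPKM + 0.1) axis, with the mean and SD of the 3 values on that scale and a dotted line at 0 FPKM. At 72 h *Prss34* and *Ctsg* are low, *Gzmc* and *Gzmg* rise, and *Mcpt8* spreads from 0.299 to 5.79 FPKM.

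The *Ms4a* cluster around *Ms4a2* on chromosome 19 showed a difference between the stimuli. Of 12 tested neighbours 9 fell in RANKL 72 h, while 4 fell and 1 rose in LPS 72 h. The shares of all tested genes that fell were 9.04% and 16.1%, and those that rose 20.2% and 14.9%. *Ms4a3*, of granulocyte-monocyte progenitors, fell in both groups (log2 -5.04, adjusted p = 0.00176, and -6.82, adjusted p = 0.000145). *Ms4a1*, the B cell antigen CD20, fell likewise (-3.07, adjusted p = 0.000336, and -3.75, adjusted p = 5.77e-05). *Ms4a6d* and *Ms4a4a*, both of macrophages, were lower in RANKL 72 h than in LPS 72 h (-2.06, adjusted p = 5.52e-05, and -3.26, adjusted p = 0.000683). Beside *Cd200r3*, the inhibitory receptor *Cd200r1* fell by 1.36 in RANKL 72 h (adjusted p = 6.08e-05) and by 1.28 in LPS 72 h (adjusted p = 6.97e-05).

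Markers of several other marrow cells were also lower at 72 h. Those of T cells, innate lymphoid cells and macrophages mostly were not called, while the B cell gene *Ms4a1* fell in both late groups. For comparison, 9.04% of all tested genes fell and 20.2% rose in RANKL 72 h, and 16.1% and 14.9% in LPS 72 h. All 9 tested eosinophil genes fell in both groups, and their summed level was 68.8 to 106 FPKM in control, 11.6 to 15.9 in RANKL 72 h and 4.89 to 7.87 in LPS 72 h. Of 13 neutrophil granule genes 8 fell in RANKL 72 h and 12 in LPS 72 h, with sums of 8310 to 25600 FPKM in control, 2010 to 8100 in RANKL 72 h and 759 to 2420 in LPS 72 h. Of 9 megakaryocyte genes 8 and 7 fell, with *Itga2b* going from a mean of 14.1 FPKM to 0.583 and 1.005, but the sum, led by *Pf4*, was 670 to 790 in control, 268 to 429 in RANKL 72 h and 441 to 2160 in LPS 72 h. Of 10 listed erythroid genes 4 were tested and fell in both groups, with sums of 5.83 to 13.4 FPKM in control, 0.504 to 1.04 in RANKL 72 h and 0.753 to 1.06 in LPS 72 h. *Hba-a2* was near the floor throughout, with 2, 3 and 1 fragments in control and none in the late groups. *Klf1*, too low to be tested, held 1, 4 and 3 fragments in control, none in RANKL 72 h and 9, 9 and 1 in LPS 72 h. Of 10 stem and progenitor genes 5 fell in RANKL 72 h and 9 in LPS 72 h, with sums of 77.2 to 104 FPKM in control, 54.4 to 66.5 and 24.8 to 41.9. In control most of that sum was *Lmo2*, at 61.3 to 81.3 FPKM, so the sum says little of the other genes. Of 11 T cell and innate lymphoid cell genes 1 fell and 1 rose in each late group, with medians of -0.12 and -0.15 and sums of 54.6 to 94.1 FPKM in control, 24.6 to 63.9 in RANKL 72 h and 38.4 to 91.2 in LPS 72 h. In contrast to the members, 1 of 10 macrophage genes fell in each late group while 1 and 3 rose (2 falling and 0 rising in RANKL 72 h relative to the median gene, 1 falling and 2 rising in LPS 72 h), with sums of 8230 to 10500 FPKM in control, 11800 to 17500 in RANKL 72 h and 6730 to 18800 in LPS 72 h. Cell division genes went apart, 4 of 10 rising and 1 falling in RANKL 72 h (relative to the median gene 0 rising and 1 falling) and 10 of 10 falling in LPS 72 h, while the members were low in both. The part of any of these in the members' levels was not tested.

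**Figure D5:**
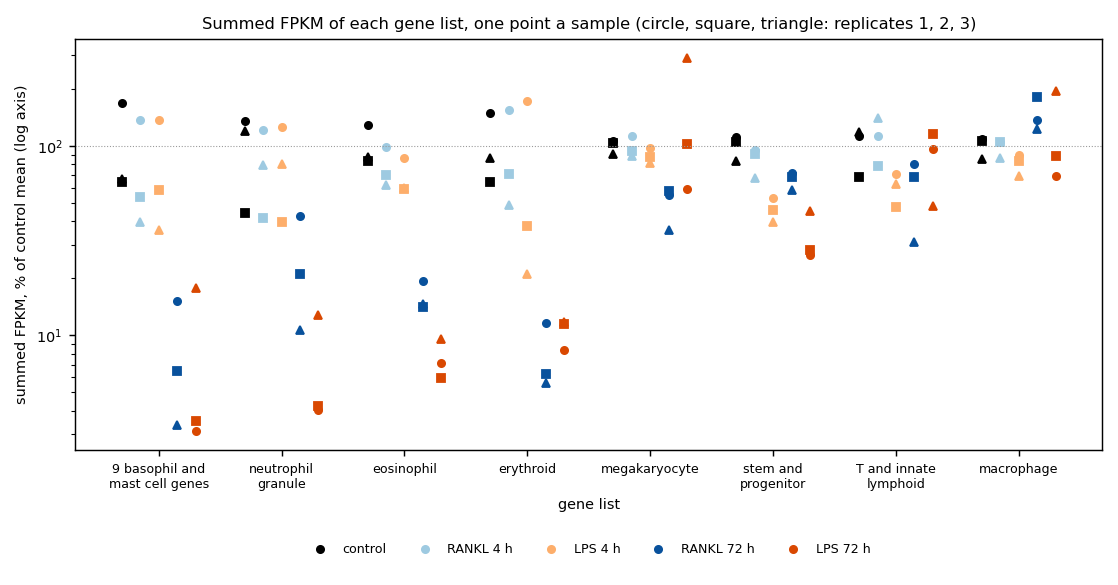
Summed FPKM of 8 gene lists in each sample, as a percentage of the mean control sum, on a log axis, by group. The members' sum at 72 h lies below every control and 4 h sample, as do the sums of the eosinophil and erythroid genes, while the macrophage sums of 6730 to 18800 FPKM at 72 h spread around the control range of 8230 to 10500.

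The genes whose pattern was most like that of the members over the 15 samples were ranked by Pearson's r on log2(FPKM + 0.1) with the mean of the 8 fitted members. Among the most alike were *Gp9* (r = 0.982), *Napsa* (0.980), *Mrvi1* (0.976), *Muc13* (0.975), *Mmrn1* (0.973), *Gp1bb* and *Ankrd35* (each 0.972), *Gucy1b3* (0.971) and *Slc18a2* (0.968). *Gp9* and *Gp1bb* encode chains of the platelet receptor for von Willebrand factor. *Gp9* was 3.96, 0.907 and 1.17 FPKM in control, with the high replicate 1 seen for *Prss34*, and 0.136, 0.0325 and 0.0165 in RANKL 72 h. For single members the most alike were *Mmrn1* for *Prss34* (0.986) and for *Cpa3* (0.975), *Slc18a2* for *Ms4a2* (0.982), *Myct1* for *Fcer1a* (0.953), *Mbd2* for *Gata2* (0.962), *Ccm2l* for *Kit* (0.963), *Mmp25* for *Il4* (0.914) and *Siglecg* for *Mcpt8* (0.913). The samples fall into 72 h and earlier ones, so r serves here to order the genes by likeness only.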

How the data were processed

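RNA was sequenced from 15 BMDM cultures in 5 groups of 3, mapped to groups by their GEO labels. The deposited values are FPKM per gene and sample, made by the authors with StringTie and Ballgown on GRCm38.p4 (mm10), and the authors tested differences with edgeR. The aligner is not given in the sources used here. The table holds 20089 complete rows in alphabetical order and ends in 1 incomplete row, and genes sorted after it were not analysed here. Fragment counts were recovered from the steps of low values, and 100% of values of 14485 genes lay within 0.01 of a whole number. The steps were found from these same values, so that share is no separate check of the counts.

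The 11743 genes whose mean reached 0.1 FPKM were fitted with limma 3.58.1 in R 4.3.3 on log2(FPKM + 0.1) in a model of the 5 groups with a variance trend. A call needed a fold above 1.5 or below 0.66 at p under 0.05, the thresholds of the study. Adjusted p-values are limma's with Benjamini-Hochberg correction over all genes tested. *Cd200r3* was fitted without the filter. Pooled ratios carry exact intervals, and the floor was 3 fragments over a group. The fit was tested on simulated data.

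The members and lists were chosen with earlier results of these data known. Named beside the members were list genes of highest mean FPKM, genes of the basophil and signalling lists called at an adjusted p under 0.05, cluster neighbours and the most alike genes. Other genes of that rule enter as counts or are not reported here. Deviations of same-numbered samples from their group means correlated at 0.71 to 0.84 between control and RANKL 4 h, 0.44 to 0.62 for LPS 4 h and 0.14 to 0.32 for RANKL 72 h, so a replicate block was fitted too: the RANKL 4 h count of further genes became 2 in place of 1. The pairing comes from these correlations alone, since the labels do not say what a number marks. Promoters are RefSeq windows of GRCm38 and gene positions are from GENCODE of the same build.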

Additional observations from a re-analysis of the deposited data

Results flagged for a closer look

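Among the basophil and mast cell genes and the signalling genes, 2 changed in opposite directions with RANKL and with LPS at 72 h, with limma's test of the difference itself past the threshold. *Adora3*, the adenosine A3 receptor by which mast cell degranulation is enhanced, fell by 1.31 (SE 0.21) on the log2 scale in RANKL 72 h and rose by 1.08 (SE 0.21) in LPS 72 h, a difference of -2.39 (SE 0.21, adjusted p = 1.45e-06). *Lat*, the scaffold that FcεRI and the T cell receptor both use, rose by 1.67 (SE 0.59) in RANKL 72 h and fell by 1.77 (SE 0.59) in LPS 72 h, a difference of 3.43 (SE 0.59, adjusted p = 0.000379). *Adora3* was low, with 25, 23 and 25 fragments in control and 7, 8 and 5 in RANKL 72 h. *Lat* was 5.1, 1.5 and 1.2 FPKM in control and 8.7, 3.4 and 10.8 in RANKL 72 h, so these 2 groups overlapped. Relative to the median gene the call of *Lat* in RANKL 72 h was 1.45 with an adjusted p of 0.0934. No member of the set of 9 showed such a difference. Groups of 3 samples were not screened for single outlying samples.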

How the results depend on the processing

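Of 756 alternative values of single members' log2 differences, 718 stayed within the spread between replicates, 38 moved further and 0 changed the sign of a called value. Of 124 alternative counts, 114 stayed within 1.5 times the reported count. With a filter at a mean of 1 FPKM, 9486 genes were tested in place of 11743. Of the members 4 were tested and all 4 were called in each 72 h group. Of the further basophil and mast cell genes, fewer of which reach this mean, 3 and 8 were called in RANKL 72 h and LPS 72 h. With this filter 8.7% of all tested genes were lower and 17.5% higher in RANKL 72 h, and 15.2% and 14.8% in LPS 72 h. Without replicate 1 of every group, a setting chosen after seeing the data, 9 further genes were called in LPS 72 h, 1 member (*Mcpt8*, -2.39) was called between the late groups, and *Mcpt8* left the call in LPS 72 h (-0.90, SE 0.73). *Mcpt8* also left that call with no filter on low values and with no variance trend (-2.12, SE 1.01 in both). With values rescaled to equal sums 1 member, *Kit* (0.93), was called between the late groups. Without a filter 1 member, *Cd200r3* (-0.60), was called in LPS 4 h. At a pseudocount of 1 *Il4* left the call in both 72 h groups (-0.42 and -0.46) and *Mcpt8* in LPS 72 h (-1.53). The cause of these changes was not tested.

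Samples were left out 1 at a time, and the setting without replicate 1 of every group is counted with these. Across these settings 7 to 8 members were called in each 72 h group, 0 to 1 in RANKL 4 h (*Fcer1a*, -1.13, without RANKL 4 h replicate 1), 0 in LPS 4 h and 0 to 1 between the late groups. For the 21 tested further genes the same settings gave 8 to 9 in RANKL 72 h and 9 to 16 in LPS 72 h. They gave 1 to 2 in RANKL 4 h, 7 to 8 in LPS 4 h and 10 to 12 between the late groups. Of all tested genes, 7.45% to 9.93% were lower and 15.9% to 20.8% higher in RANKL 72 h in these settings. In LPS 72 h 14.2% to 17.1% were lower and 11.7% to 19.6% higher. In RANKL 4 h the shares were 0.571% to 2.2% and 0.996% to 1.69%. In LPS 4 h they were 38.5% to 42.1% and 8.17% to 9%. Between the late groups they were 11.3% to 17.7% and 21.9% to 26.3%. Over all alternatives the members' median ranged from -4.55 to -0.88 in RANKL 72 h and from -5.50 to -1.13 in LPS 72 h.

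With a replicate block the further genes called in RANKL 4 h were 2 in place of 1, also with centring on the median gene and in a fit of control and the 4 h groups alone, and 0 at an adjusted p under 0.05. For LPS 72 h against control and between the late groups the numbers do not pair the samples (correlations -0.03 to 0.18 and -0.23 to -0.02, with 2 and 0 samples closest to their own number). The block changed no call of a member. Depth limits *Il4*, *Fcer1a* and *Cd200r3* most, with at most 45 fragments in a sample.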
